A study of Mus musculus with 186 samples.

Results

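The 9 transcription factors of cortical excitatory neurons were followed by name through the whole count table: Emx1, Emx2, Tbr1, Neurod1, Neurod2, Neurod6, Fezf2, Cux2 and Mef2c. All 9 were found by symbol among the 28338 genes of the table, each as a protein-coding gene. The list rests on what these genes are known for and uses no measured threshold, but it was drawn up with earlier results of these data known. The study sequenced polyadenylated RNA from the brains of mice mutant for Akap11, the gene of an A-kinase anchoring protein. It covered 186 libraries in 36 groups, 30 of 5 libraries and 6 of 6 libraries: the prefrontal (PFC) and somatosensory (SSC) parts of the cortex, the hippocampus (HP), the substantia nigra (SN), the thalamus (TH) and the striatum (ST), at 4 weeks (96 libraries) and at 12 weeks (90 libraries). In each region and age the mice were wild type (WT), heterozygous (Akap11 +/-, HET) or homozygous mutant (Akap11 -/-, KO). The labels name no Cre line, drug or other treatment for any group, so the mutation is taken as present in all cells of the animal. Tissue was cut from frozen brains on a cryostat, and each library began from 200 ng of total RNA prepared with a stranded mRNA kit. Libraries are named below by genotype and by the number in their label.

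These factors are background knowledge for how the dorsal forebrain makes and keeps its glutamatergic neurons. Emx1 and Emx2 are homeobox factors of the embryonic dorsal telencephalon that lie upstream in this programme, Neurod1, Neurod2 and Neurod6 are basic helix-loop-helix factors that drive and maintain neuronal differentiation, and Tbr1 is a T-box factor of early-born and layer 6 neurons. Fezf2 specifies subcortically projecting deep-layer neurons, Cux2 is a homeobox factor of upper-layer neurons, and Mef2c is a MADS-box factor that acts in activity-dependent control of synapses. Striatal projection neurons and most thalamic and midbrain neurons arise from other progenitors, so several of these genes are usual markers of cortical and hippocampal tissue. In bulk tissue, fewer cells of a type and less RNA per cell cannot be told apart.

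The promoters of 3 members are shown because Neurod2 and Neurod6 followed each other closely over the 36 group means (Pearson r = 0.983 on log2 values, a description over groups that share regions and depth) and Mef2c is shown for comparison as a member with another pattern. Each sequence is the 250 bases before a RefSeq transcription start on GRCm38.p6, read 5′ to 3′ on the strand of the gene. Capitals mark CAGATG, a 6-letter E-box, the kind of motif that basic helix-loop-helix proteins bind. Neurod2 is at chr11:98329646-98329895 on the minus strand (3 of its bases lie in the first exon of the GENCODE model), Neurod6 at chr6:55681264-55681513 on the minus strand, and Mef2c at chr13:83503784-83504033 on the plus strand.
Neurod2: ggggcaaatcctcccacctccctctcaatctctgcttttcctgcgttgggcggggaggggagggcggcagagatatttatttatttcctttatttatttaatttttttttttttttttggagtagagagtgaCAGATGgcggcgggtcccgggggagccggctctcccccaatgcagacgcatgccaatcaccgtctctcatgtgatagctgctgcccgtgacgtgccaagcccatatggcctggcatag
Neurod6: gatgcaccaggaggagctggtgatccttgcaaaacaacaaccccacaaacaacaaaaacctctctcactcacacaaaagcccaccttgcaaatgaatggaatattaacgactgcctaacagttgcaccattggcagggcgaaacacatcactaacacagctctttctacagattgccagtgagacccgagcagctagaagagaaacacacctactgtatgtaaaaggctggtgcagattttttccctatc
Mef2c: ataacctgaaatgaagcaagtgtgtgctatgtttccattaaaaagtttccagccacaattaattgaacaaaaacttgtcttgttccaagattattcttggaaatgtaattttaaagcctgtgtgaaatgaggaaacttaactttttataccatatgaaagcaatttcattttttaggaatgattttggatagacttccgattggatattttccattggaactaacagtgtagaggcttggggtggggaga
The motif CAGATG was searched on both strands. So were a further E-box with the letters CAGCTG and the homeodomain core, TAATTA. The TATA box, TATAAA, was searched on the strand of the gene. The Neurod2 window held 1 CAGATG and none of the others, so no matches overlapped, and the Neurod6 and Mef2c windows held none of the 4. Among 32841 RefSeq promoter windows of the same length, 14.4% held CAGATG, 13% the other E-box, 4.84% the homeodomain core and 7.59% the TATA box. The Neurod2 window had 11 CG dinucleotides and 52.8% G or C, the Neurod6 window 3 and 46%, and the Mef2c window 1 and 33.6%, against medians of 6 and 52.4% over all windows. Mef2c has 2 other starts in the table: the window of the second held 1 TAATTA at 44.8% G or C, and 80 of its bases lie in annotated exons, and the window of the third held 1 CAGATG at 49.6%. A match is a description of letters and was not tied to any measurement here.

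Levels are given as CPM, the counts of a gene per 1000000 counts of its library, scaled with TMM factors over all libraries. Library totals ran from 20794700 to 73344400 counts, to 6 significant digits. Akap11 itself lay at 11.7 to 24.5 CPM in the 60 KO libraries, at 90.9 to 222 CPM in the 63 HET libraries and at 44.8 to 436 CPM in the 63 WT libraries. The lowest WT value was that of the library labelled WT 92 in nigra at 4 weeks, which lay below every HET library, whereas the next lowest WT library was at 176 CPM. In each of the 12 sets of region and age, every KO library was below every other library. Several libraries stood apart from their set in the members themselves, and results that rest on them are given with and without them: in striatum at 4 weeks WT 92, KO 51, KO 161 and KO 163, in thalamus at 4 weeks WT 913 and WT 914, in hippocampus at 4 weeks HET 941, and, for Fezf2 and Cux2, HET 162 and KO 51 in PFC at 4 weeks and HET 1 in PFC at 12 weeks. They were noticed after the values were seen. Where genes of a list are counted below as above or under all other libraries of a set, the share over all genes is not given. Such counts describe only the list.

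In WT brain Emx1, Tbr1, Fezf2, Cux2 and Mef2c were highest in cortex, and Emx2, Neurod1, Neurod2 and Neurod6 were highest in hippocampus. In striatum, thalamus and nigra at 12 weeks most members were low to near 0. The exceptions were Cux2, Mef2c, Emx2 in striatum and nigra, Neurod1 in thalamus and Neurod6 in nigra. At 12 weeks, across all genotypes, 30 cortical libraries were set against 45 striatal, thalamic and nigral libraries. Every cortical library was above every one of the 45 for Emx1, Tbr1, Neurod1, Neurod2, Neurod6, Fezf2 and Mef2c. The share of all genes separated in this way is not given, so this describes only the members. As a ratio the gap was widest for Tbr1, whose lowest cortical library was at 91.1 CPM and whose highest subcortical library was at 1.46 CPM. The ranges met for Emx2 (lowest cortical 5.73, highest subcortical 6.43 CPM) and for Cux2 (114 and 166 CPM). Among the 15 pairs of regions, 117 of 135 member tests passed at 12 weeks (edgeR, adjusted p under 0.05), against 61.1% of all gene tests, and 89 of 135 passed at 4 weeks, against 45.6% of all gene tests. Without the WT libraries that stood apart, 107 passed at 4 weeks, and the share of all gene tests in that fit is not given. For PFC against SSC the share of all genes called also rose in it, from 16.1% to 18%. How the share moved in the other pairs is not given, so the higher count is not read as a result about the members.

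**Figure D1:**
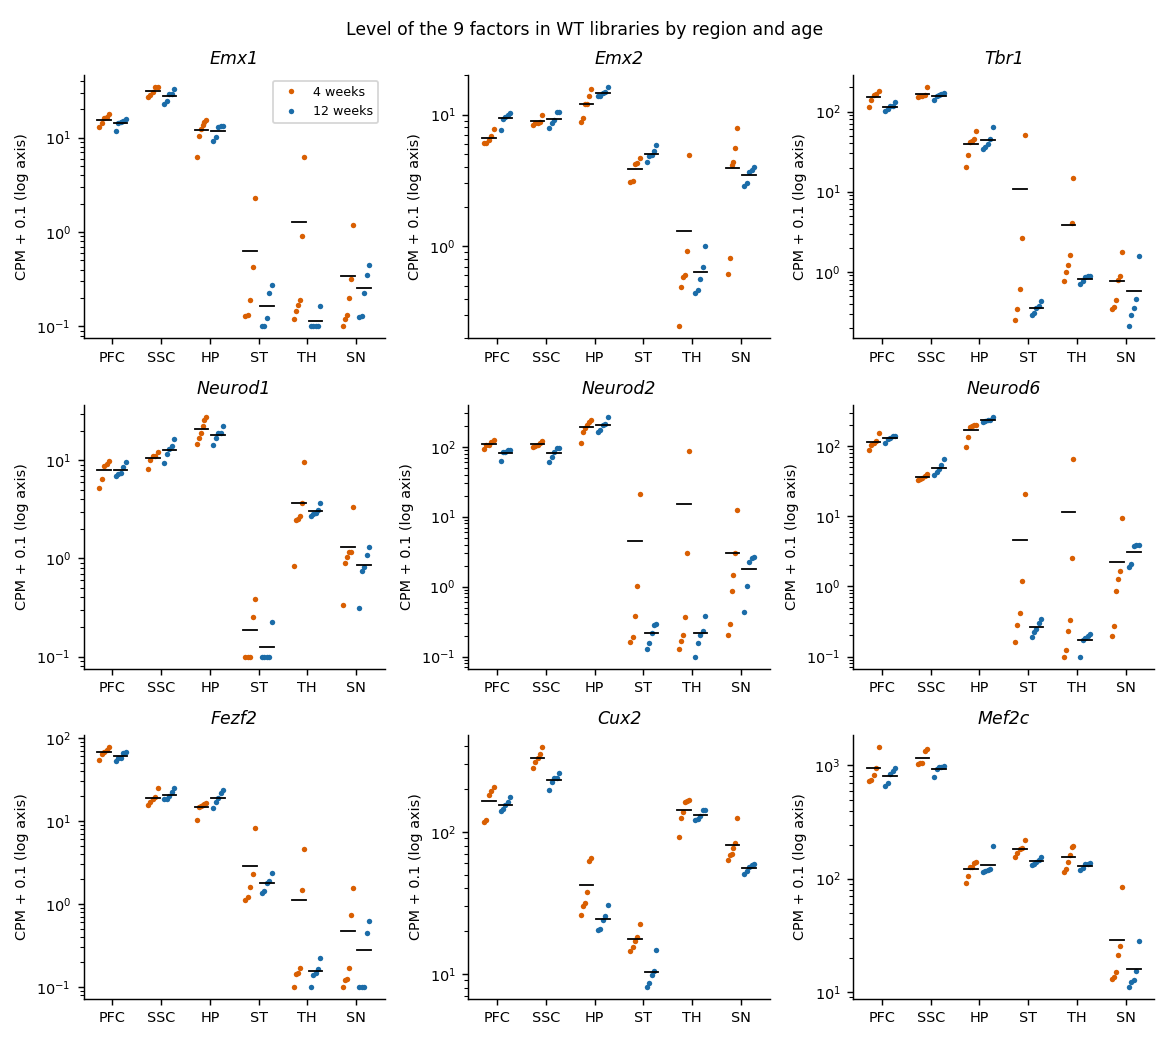
Level of each of the 9 factors in WT libraries (CPM plus 0.1, log axis) by region, at 4 weeks (orange) and 12 weeks (blue); points are libraries and black bars are group means. The 12-week striatal, thalamic and nigral points of Emx1, Tbr1, Neurod2, Neurod6 and Fezf2 lie far below the cortical ones, and single high points of the 4-week striatum and thalamus are libraries WT 92 and WT 913.

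Divided by the length of the longest annotated transcript, to allow a comparison between genes, Mef2c had by far the highest level in WT SSC at 4 weeks, at 187 CPM per kilobase. Tbr1 (41.7), Cux2 (37.9), Neurod2 (34.4), Emx1 (19.8) and Neurod6 (16.7 CPM per kilobase) followed. Fezf2 (7.78), Neurod1 (3.799) and Emx2 (3.01 CPM per kilobase) were lowest. At 12 weeks Mef2c was again highest, at 148 CPM per kilobase, and Emx2 lowest, at 3.16.

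The EMX genes split between cortex and hippocampus. Emx1 (ENSMUSG00000033726.8, GRCm38 chromosome 6, 85187438 to 85204462, plus strand) was at 27.6 ± 3.95 CPM (SD, n = 5) in WT SSC at 12 weeks, 14.1 ± 1.49 in PFC and 11.7 ± 1.95 in hippocampus. PFC was lower than SSC, with a log2 difference of -0.98 ± 0.23 (SE; edgeR adjusted p = 0.000987), whereas PFC and hippocampus overlapped (adjusted p = 0.356, edgeR). In striatum, thalamus and nigra its WT means were 0.0645, 0.013 and 0.156 CPM, and individual libraries were at 0. Emx2 (ENSMUSG00000043969.4, chromosome 19, 59458372 to 59465357, plus strand), the paralogue of Emx1, was instead highest in hippocampus, at 14.6 ± 1.01 CPM (n = 5), ahead of PFC at 9.24 ± 1.01 (edgeR adjusted p = 0.000145). PFC and SSC (9.21 ± 1.11 CPM) overlapped, with an edgeR adjusted p of 0.952. Unlike Emx1, Emx2 kept 4.96 ± 0.569 CPM in striatum and 3.37 ± 0.497 CPM in nigra, and its lowest region was thalamus at 0.533 ± 0.225 CPM (n = 5 in each).

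The NeuroD genes shared a hippocampal maximum and differed in cortex and outside it. Neurod2 (ENSMUSG00000038255.6, chromosome 11, 98325415 to 98329648, minus strand) was at 203 ± 42.3 CPM in WT hippocampus at 12 weeks and at 81.7 ± 11 and 81.3 ± 15.8 CPM in PFC and SSC (n = 5 in each). The cortices overlapped (edgeR adjusted p = 0.983). Neurod6 (ENSMUSG00000037984.9, chromosome 6, 55677822 to 55681263, minus strand) was at 237 ± 16.2 CPM in hippocampus, but its PFC level of 130 ± 11.7 CPM stood above the SSC level of 49.5 ± 10.3 CPM with no overlap (n = 5 in each). That difference was 1.38 ± 0.15 (log2, SE; edgeR adjusted p = 8.36e-09). Neurod1 (ENSMUSG00000034701.9, chromosome 2, 79452521 to 79456751, minus strand) ran from 18.2 ± 2.84 CPM in hippocampus through 12.8 ± 2.66 in SSC to 7.88 ± 1.12 in PFC (n = 5 in each). Hippocampus and SSC did not pass (edgeR adjusted p = 0.0635), and PFC was lower than SSC, with a log2 difference of -0.72 ± 0.23 (SE; edgeR adjusted p = 0.0138).

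Outside the forebrain cortex the 3 NeuroD genes parted. Neurod1 was at 2.93 ± 0.39 CPM in WT thalamus at 12 weeks, against 0.757 ± 0.378 CPM in nigra and 0.0249 CPM in striatum, where most libraries were at 0 (n = 5 in each). Neurod2 and Neurod6 showed the opposite order of thalamus and nigra. In nigra Neurod2 was at 1.68 ± 0.996 and Neurod6 at 3.01 ± 1.02 CPM, and in thalamus their means were 0.115 and 0.0725 CPM (n = 5). Nigral Neurod6 was present in every 12-week library, with 1.78 to 3.85 CPM in WT, 2.86 to 4.82 CPM in HET and 2.49 to 3.17 CPM in KO. The thalamus-to-nigra difference of Neurod6 was -5.25 on the log2 scale, a fitted value that rests on thalamic libraries near 0.

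Tbr1 and Fezf2 are factors of deep-layer neurons. Tbr1 (ENSMUSG00000035033.15, chromosome 2, 61802930 to 61814114, plus strand) was at 158 ± 12 CPM in WT SSC at 12 weeks, 115 ± 10.8 in PFC and 43.9 ± 12 in hippocampus (n = 5 in each). The SSC and PFC libraries did not overlap, and the edgeR adjusted p was 0.0505. Fezf2 (ENSMUSG00000021743.6, chromosome 14, 12342094 to 12348189, minus strand) favoured PFC, at 59.8 ± 6.07 CPM, over SSC at 20.6 ± 2.96 CPM (n = 5), a difference of 1.52 ± 0.25 (log2, SE; edgeR adjusted p = 1.54e-05). SSC and hippocampus (18.9 ± 3.74 CPM) overlapped, with an edgeR adjusted p of 0.685. Striatum held 1.67 ± 0.41 CPM of Fezf2 at 12 weeks, more than nigra (0.174 CPM) and thalamus (0.0544 CPM), and the striatum-to-nigra step passed the test (edgeR adjusted p = 1.76e-07).

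Cux2 and Mef2c were the members with the highest WT means in striatum, thalamus and nigra at 12 weeks. Cux2 (ENSMUSG00000042589.18, chromosome 5, 121856366 to 122050102, minus strand) was ordered as SSC (232 ± 23.6), PFC (155 ± 13.9), thalamus (132 ± 10.3), nigra (55.7 ± 3.77), hippocampus (24.2 ± 4.12) and striatum (10.3 ± 2.66 CPM, n = 5 in each) at 12 weeks. Every neighbouring step passed the test except PFC to thalamus, with an edgeR adjusted p of 0.0721. Mef2c (ENSMUSG00000005583.16, chromosome 13, 83504034 to 83667080, plus strand) was at 930 ± 80.8 CPM in SSC and 810 ± 124 CPM in PFC, which overlapped (edgeR adjusted p = 0.333, n = 5). It then formed a plateau of 142 ± 9.68 CPM in striatum, 133 ± 34.3 in hippocampus and 130 ± 7.56 in thalamus (n = 5 in each), whose neighbours overlapped. Nigra was lowest, at 15.7 ± 6.92 CPM (n = 5).

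The PFC and SSC contrast at 12 weeks therefore held 5 called members, against 40.3% of all genes called: Neurod6 and Fezf2 higher in PFC, and Emx1, Neurod1 and Cux2 higher in SSC. At 4 weeks only Cux2 passed (16.1% of all genes called), with 165 ± 42.1 CPM in PFC and 333 ± 43.5 CPM in SSC (n = 5), a log2 difference of -1.04 (edgeR adjusted p = 0.00184). The 4-week means of the other 4 pointed the same way, for example Fezf2 at 66.8 ± 8.75 CPM in PFC and 18.9 ± 3.5 CPM in SSC with no overlap (n = 5, edgeR adjusted p = 0.106). That fit shared its estimate of the spread with the WT striatal and thalamic libraries that stood apart. Without them 3 members passed (18% of all genes called): Cux2 at -1.02 ± 0.22 (log2, SE; edgeR adjusted p = 0.00109), Fezf2 at 1.82 ± 0.42 (0.00265) and Neurod6 at 1.68 ± 0.57 (0.0402). By genes whose group means followed each member most closely over all 36 groups (log2 scale, among 14080 genes), Tbr1 was nearest to Serpinb8 (r = 0.986), Neurod2 to Tcf4 (0.985) and Chrd (0.984), and Neurod6 to Gprin1 (0.977) and Ptgs2 (0.976). Emx1 was nearest to Psrc1 (0.985) and Serpinb8 (0.981), Fezf2 to Efcab6 (0.985) and Clip1 (0.978), and Emx2 to Prkca (0.957) and Unc5a (0.955). For Neurod1 the nearest were Map4k3 (0.974) and Arhgef25 (0.968), for Cux2 Map3k9 (0.977) and Ppfibp1 (0.970), and for Mef2c Fbxw7 (0.974) and Sorbs2 (0.972). Between members, r was highest for Emx1 with Tbr1 (0.987) and lowest for Emx2 with Cux2 (-0.09), and all of these values share the region differences.

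In WT, 9 of 44 member tests changed between 4 and 12 weeks (2 up, 7 down; edgeR), against 13.6% of all gene tests (6.29% up and 7.27% down). Neurod2 fell by 0.41 ± 0.10 in PFC (log2, SE; edgeR adjusted p = 0.0188), from 94.2 to 123 CPM at 4 weeks to 62.8 to 89.8 CPM at 12 weeks (n = 5 in each), without overlap. It fell by 0.41 ± 0.11 in SSC (edgeR adjusted p = 0.0188), from 108 ± 8.47 to 81.3 ± 15.8 CPM (n = 5). Neurod6 went the other way in SSC, from 35.9 ± 3.01 to 49.5 ± 10.3 CPM (n = 5), a rise of 0.47 ± 0.11 (edgeR adjusted p = 0.00974).

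Cux2 fell by 0.52 ± 0.10 in SSC (edgeR adjusted p = 0.0030), from 333 ± 43.5 to 232 ± 23.6 CPM, with no overlap between the ages (n = 5). In striatum it fell by 0.73 ± 0.17 (edgeR adjusted p = 0.0144), from 17.4 ± 3.16 to 10.3 ± 2.66 CPM, and without WT 92 it fell by 0.65 (edgeR adjusted p = 0.0272). Emx2 rose by 0.50 ± 0.11 in PFC (edgeR adjusted p = 0.0116), from 6.54 ± 0.703 to 9.24 ± 1.01 CPM (n = 5). Tbr1 fell by 0.40 ± 0.11 in PFC (edgeR adjusted p = 0.0360), a call that passed in 3 of 10 fits that each left out 1 library. It did not pass without 4-week WT 23, WT 92 or WT 914 or without 12-week WT 1, WT 2, WT 3 or WT 4 (edgeR adjusted p = 0.0509 to 0.0898).

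In hippocampus Cux2 (-0.79 ± 0.24, log2 and SE; edgeR adjusted p = 0.0510) and Neurod6 (0.50 ± 0.16, adjusted p = 0.0618) did not pass.

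The 2 remaining calls were in striatum and touched WT 92. Tbr1 fell by 5.37 ± 1.53 there (edgeR adjusted p = 0.0370), with WT 92 at 50.8 CPM and the other 4-week WT libraries at 0.151 to 2.52 CPM. Without WT 92 its log2 change was -1.77 and the edgeR adjusted p was 0.143, and it also did not pass without any of the 5 libraries of 12 weeks (adjusted p = 0.0736 to 0.0817). Mef2c fell by 0.32 ± 0.09 (edgeR adjusted p = 0.0270), from 182 ± 23.2 to 142 ± 9.68 CPM (n = 5), and without WT 92 by 0.28 (adjusted p = 0.0320). It did not pass without 4-week WT 142 or without 12-week WT 1, WT 2 or WT 3 (edgeR adjusted p = 0.0531 to 0.0666).

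Between KO and WT, none of 93 member tests in the 12 sets passed with edgeR (0.644% of all gene tests passed). By set, 3.35% of genes passed in striatum at 4 weeks and 4.42% at 12 weeks, against 0.0125% and 0.0123% in PFC, 0.0564% and 0.0252% in SSC, 0.00609% and 0.00608% in hippocampus, 0.0128% and 0.0064% in thalamus, and 0.00617% and 0.0364% in nigra. Unadjusted, 15 of the 93 were under 0.05, and DESeq2 called 2: Neurod2 in PFC at 4 weeks (0.603% of genes called there by DESeq2) and Cux2 in striatum at 12 weeks (4.76%). The remaining 15 of 108 tests could not be made because the gene was below the low-count filter in that set, in each case Emx1, Neurod1, Neurod2, Neurod6 or Fezf2 in striatum, thalamus or nigra. Between HET and WT, 0 of 93 passed with edgeR (0.00521% of all gene tests), 10 were under 0.05 unadjusted, and DESeq2 called 0. A change of the KO effect between the ages passed in 0 of 50 tests (edgeR, 0% of all gene tests), with 3 under 0.05 unadjusted and 0 called by DESeq2.

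**Figure D2:**
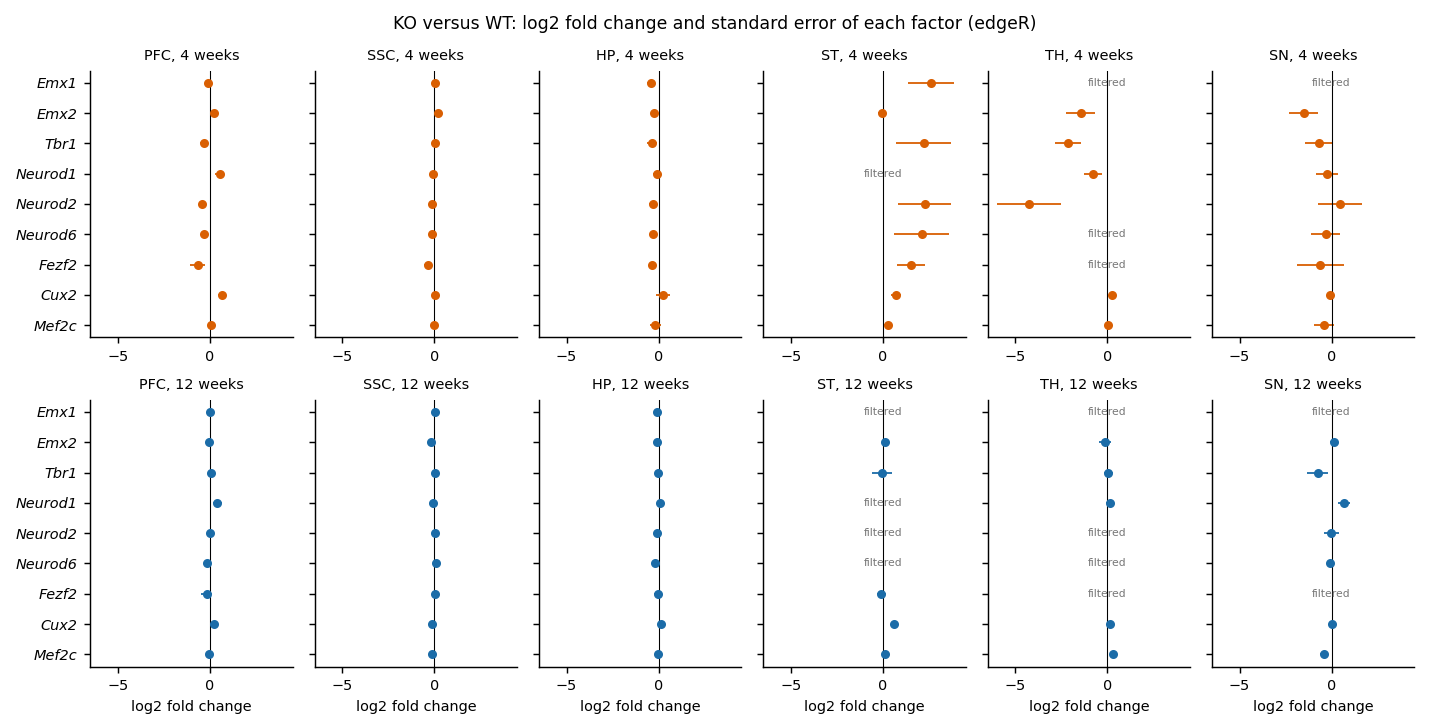
Log2 fold change of each factor between KO and WT (points) with its standard error (bars), by region, at 4 weeks (top) and 12 weeks (bottom). The widest departures from 0 are in striatum and thalamus at 4 weeks, and at 12 weeks the cortical and hippocampal estimates lie close to 0.

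In PFC at 4 weeks the neuronal differentiation factor Neurod2 was at 69.1, 74.0, 77.7, 79.2 and 98.2 CPM in the KO libraries and at 94.2, 105, 106, 115 and 123 CPM in WT. Only the highest KO library reached the WT range. The log2 difference was -0.45 ± 0.10 (SE; edgeR adjusted p = 0.171) and -0.46 with DESeq2 (adjusted p = 0.0173). Without KO 44, the highest KO library, it was -0.54 and passed (edgeR adjusted p = 0.0160). Neurod6 was -0.34 ± 0.16 (edgeR adjusted p = 0.316), Neurod1 was 0.52 ± 0.22 (0.287), and the upper-layer factor Cux2 was 0.67 ± 0.23 (0.232). Across all 9 members the median was -0.12 and across all genes 0.01. In HET, Neurod2 was at 74.8 to 99.7 CPM, with a log2 difference of -0.29 ± 0.09 (edgeR adjusted p = 0.847). At 12 weeks the KO libraries were at 73.6 to 98.1 CPM of Neurod2 and the WT libraries at 62.8 to 89.8 CPM. The KO libraries thus did not lie below WT at 12 weeks, and the 4-week difference itself had not passed with edgeR in all libraries. The signed log2 difference was higher at 12 weeks by 0.46 ± 0.14, a change that did not pass (edgeR adjusted p = 0.851).

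The prefrontal libraries also differed in the balance of Fezf2 and Cux2, the pair that separated PFC from SSC in WT. At 4 weeks HET 162 had 10.2 CPM of Fezf2 and 303 CPM of Cux2, and KO 51 had 11.4 and 372 CPM. The other 14 PFC libraries ran from 31.7 to 77.5 CPM for Fezf2 and from 118 to 291 CPM for Cux2, and the SSC libraries of that age from 8.72 to 24.5 and from 216 to 429 CPM. Both libraries thus lay inside the SSC range for both genes. Of the other members, Neurod6, Emx1, Tbr1 and Neurod2 lay outside the SSC range in both. Neurod6 was at 80.2 CPM in HET 162 and 83.2 CPM in KO 51, above the SSC libraries (25.1 to 47.8 CPM). Emx1 was at 11.9 and 15.9 CPM, below them (all at 26.8 CPM or more). Mef2c lay inside the SSC range in both, at 1075 and 1079 CPM (SSC 805 to 1677 CPM). Emx2 and Neurod1 were inside it in KO 51 only. At 12 weeks HET 1, with 22.5 CPM of Fezf2 and 239 CPM of Cux2, lay inside the SSC ranges of 18.0 to 27.8 and 181 to 259 CPM. It did not for Neurod6 (102 CPM, SSC 39.0 to 68.0), Emx1 (16.3 CPM, SSC 22.8 to 34.8), Tbr1 or Emx2. For Mef2c, Neurod1 and Neurod2 HET 1 was inside the SSC range. In the 4-week pair, 6 of 20 other cortical projection neuron factors and 3 of 8 deep-layer genes (the lists share members) were below all 14 other PFC libraries, and all 5 oligodendrocyte genes were also below them. Without the 3 libraries, the KO difference of Cux2 in PFC at 4 weeks was 0.50 (edgeR adjusted p = 0.427) and that of Neurod2 was -0.44 (adjusted p = 0.295).

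**Figure D3:**
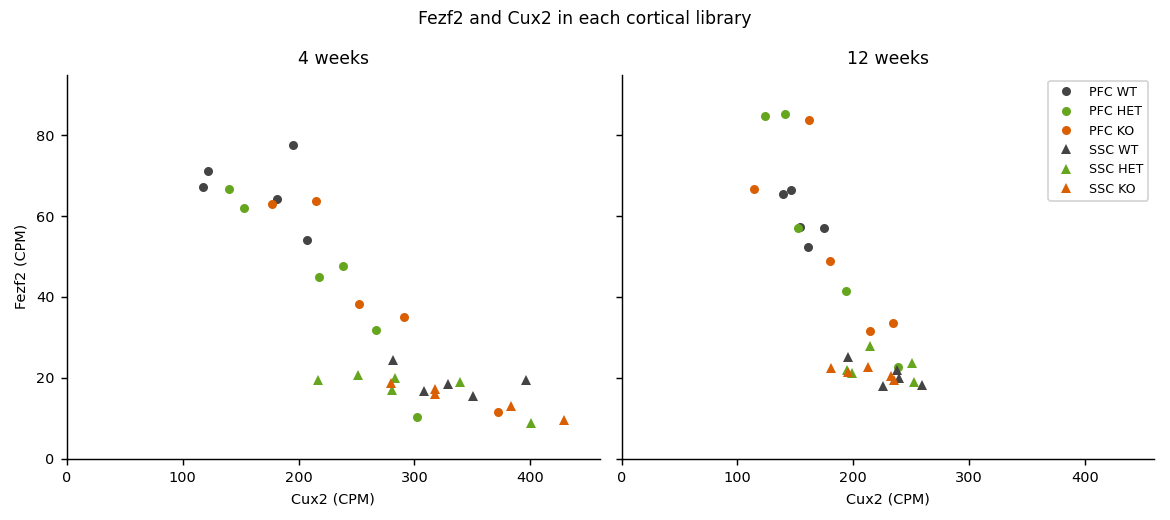
Fezf2 against Cux2 (CPM) in each PFC (circles) and SSC (triangles) library at 4 weeks (left) and 12 weeks (right), coloured by genotype. WT PFC libraries sit high on Fezf2 and low on Cux2, and PFC libraries HET 162 and KO 51 at 4 weeks and HET 1 at 12 weeks fall among the SSC points.

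In SSC and hippocampus no KO estimate passed. Of the 36 member estimates there, those with an unadjusted p under 0.05 were Emx2 in SSC at 4 weeks (log2 difference 0.22, edgeR adjusted p = 0.964) and Neurod6 in hippocampus at 12 weeks (-0.19, adjusted p = 0.998). In hippocampus at 4 weeks Emx1 had a median of 8.22 CPM in KO and 12.9 CPM in WT. Emx2, Tbr1, Neurod2, Neurod6, Fezf2 and Mef2c also had lower medians in KO, and Neurod1 and Cux2 higher ones. KO and WT libraries overlapped for every member there. Hippocampal library HET 941 at 4 weeks had 108 CPM of Tbr1, 136 CPM of Cux2 and 538 CPM of Mef2c, above all 15 other libraries of the set. It was below those 15 for Emx2, Neurod1 and Neurod6, the members with a hippocampal maximum other than Neurod2. All 5 upper-layer genes were above and 6 of 8 hippocampal neuron genes below the other libraries in it. Mef2c in HET against WT hippocampus at 4 weeks was 0.89 with HET 941 and 0.26 without it (edgeR adjusted p = 0.667 and 0.818).

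In striatum at 4 weeks the members were set by 4 libraries. Tbr1 was at 50.8 CPM in WT 92 and at 0.151, 0.246, 0.504 and 2.52 CPM in the other WT libraries. In KO it was at 74.9, 118 and 57.3 CPM in KO 51, KO 161 and KO 163, and at 0.142 and 0.222 CPM in KO 12 and KO 932. The HET libraries ran from 0.186 to 8.14 CPM. Neurod2 and Neurod6 divided the same libraries: Neurod2 was at 20.7 CPM in WT 92, at 24.6 to 46.3 CPM in the 3 KO libraries, and at 0.0232 to 2.74 CPM in the other 11, and Neurod6 at 20.6, 19.7 to 45.8, and 0 to 4.04 CPM. Cux2 was at 27.0 to 52.0 CPM in the 3 KO libraries, 22.5 CPM in WT 92 and 12.9 to 18.0 CPM in the other 11. In all, 7 of the 9 members were higher in each of these 4 libraries than in any of the other 11, and Emx2 and Mef2c were not. The 4 were picked by these values, so the count is a description and no test. The share of all genes that did so is not given.

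Read as a percentage of the WT cortical mean of the same age, the median over the members was 42.7% in KO 161, 28.0% in KO 51, 19.1% in WT 92 and 17.5% in KO 163, and 0.131 to 5.33% in the other 11 libraries. At 12 weeks all 15 striatal libraries lay between 0.175 and 1.27%. Of 10 genes made by cortical excitatory neurons but not on the member list, 7 were above all 11 other libraries in each of the 4. The share of all genes beside this count is not given either. Read in the same way, the median of those 10 products was 33.1% of WT cortex in KO 51, 28.4% in KO 161, 24.6% in WT 92 and 19.6% in KO 163. The mean log2(CPM + 1) of those 10 genes was 6.08 to 6.68 in the 4 libraries and 3.38 to 4.32 in the 11. For 8 striatal projection neuron genes it was 7.57 to 8.72 in the 4 and 8.32 to 9.06 in the 11.

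**Figure D4:**
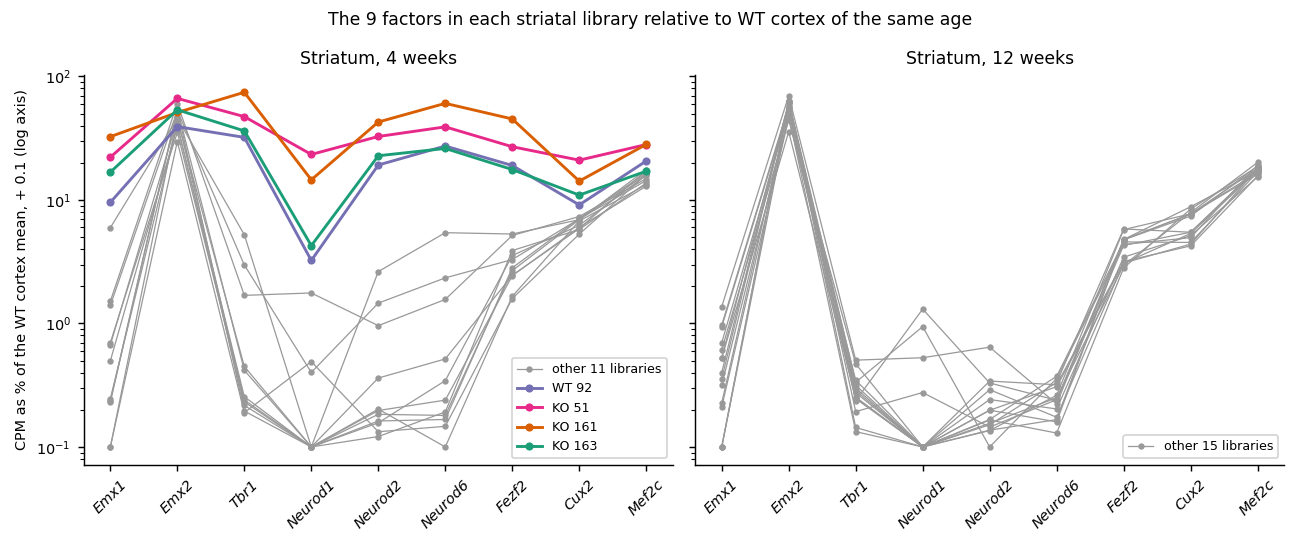
Level of each factor in every striatal library as a percentage of the WT cortical mean of the same age (plus 0.1, log axis), at 4 weeks (left) and 12 weeks (right); lines join the members of a library. WT 92, KO 51, KO 161 and KO 163 lie above the others at 4 weeks for Emx1, Tbr1, Neurod2, Neurod6 and Fezf2, and no 12-week library does.

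Set against the pooled PFC and SSC mean of WT, the members were not present in the 4 libraries in equal proportions. Above the median of the other 11 striatal libraries, Tbr1 in KO 161 amounted to 74.3% of its WT cortical level, Fezf2 to 43.6% and Cux2 to 7.99%. In WT 92 the same values were 31.9%, 16.7% and 2.53%, in KO 51 47.1%, 24.8% and 15.3%, and in KO 163 36.03%, 15.2% and 4.48%. Against this pooled mean Tbr1 was ahead of Fezf2, and Fezf2 ahead of Cux2, in all 4. The 2 cortices differed, however. In WT at 4 weeks Fezf2 was at 66.8 CPM in PFC and 18.9 CPM in SSC. Cux2 was at 165 and 333 CPM there, and Tbr1 at 152 and 166 CPM. The place of Fezf2 in the order therefore depends on the cortex taken as reference. By list, 1 of 8 deep-layer genes was above and 1 below all 11 other libraries in each of the 4, and 0 of 5 upper-layer genes were above or below. The mean log2(CPM + 1) was 5.25 to 5.81 in the 4 and 4.09 to 5.20 in the 11 for the deep-layer list, and 3.56 to 4.05 and 3.37 to 4.03 for the upper-layer list.

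The 4-week striatal KO estimates followed these libraries. The median log2 difference over the 8 members tested was 1.81 (all genes -0.002) and 7 of 8 were above 0. Neurod1 was under the filter, and since members can pass it through their high libraries these figures support no direction. None passed with edgeR (3.35% of all genes did), with Cux2 at 0.73 ± 0.28 (edgeR adjusted p = 0.172). Without the 4 libraries, the values of Emx1, Tbr1, Neurod2, Neurod6, Fezf2, Cux2 and Mef2c were all below 0, for example Tbr1 at -2.21 (edgeR adjusted p = 0.567) and Cux2 at -0.14 (0.611). Without KO 12, the KO library lowest for Cux2, it was at 0.91 and passed (edgeR adjusted p = 0.0318). The HET estimates, all below 0 with every library, turned above 0 for Emx1, Tbr1, Neurod2, Neurod6 and Fezf2 without them, with Tbr1 at 1.64 (edgeR adjusted p = 0.9998).

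At 12 weeks, where no striatal library stood apart, Cux2 was at 14.7, 14.7, 15.1, 16.1 and 16.8 CPM in the KO libraries and at 8.01, 8.56, 9.74, 10.4 and 14.7 CPM in WT. Only WT 3, at 14.7 CPM, reached the KO level, and the HET libraries were at 8.29, 9.38, 10.1, 10.4 and 14.1 CPM. The log2 difference was 0.58 ± 0.16 with an edgeR adjusted p of 0.050047, just over the threshold (4.42% of all genes passed in this set), and 0.57 with DESeq2 (adjusted p = 0.00986). When each library was left out in turn the estimate ran from 0.50 to 0.75 and the edgeR adjusted p from 0.0034 to 0.130. It passed in 3 of those 15 fits, without WT 3, without HET 1 and without HET 2. It also passed with only the 2 genotypes in the fit (0.58, edgeR adjusted p = 0.0486) and with the replicate number as a block (0.60, adjusted p = 0.0297). With the cortical product score as a covariate the estimate was 0.51 (edgeR adjusted p = 0.128). Of the other 4 members tested in this set, Mef2c was at 0.13 ± 0.06 (edgeR adjusted p = 0.277).

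Of 19 other cortical projection neuron factors tested in KO striatum at 12 weeks (4.42% of all genes passed), 16 did not pass, 0 passed higher and 3 lower: Zbtb18, a zinc-finger repressor (-0.53 ± 0.09, log2 and SE; edgeR adjusted p = 0.00157), Pou3f1 (-0.39 ± 0.10, adjusted p = 0.0326) and Bcl11b (-0.33 ± 0.09, adjusted p = 0.0385). Bcl11b is also a factor of striatal projection neurons. Bcl11b was named after its value was seen. At 4 weeks (3.35% of all genes passed) 1 of 20 passed, Pou3f1, at -0.67 ± 0.16 (edgeR adjusted p = 0.0290). Of 8 tested cortical neuron products, Nptx1 was lower (-0.97 ± 0.15, edgeR adjusted p = 0.00119) and Lamp5 higher (0.31 ± 0.07, 0.0121) at 12 weeks. Among 5 upper-layer genes, the list closest to Cux2 by layer, Rspo1 alone passed, at -1.36 ± 0.16 at 12 weeks (edgeR adjusted p = 7.46e-05).

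**Figure D5:**
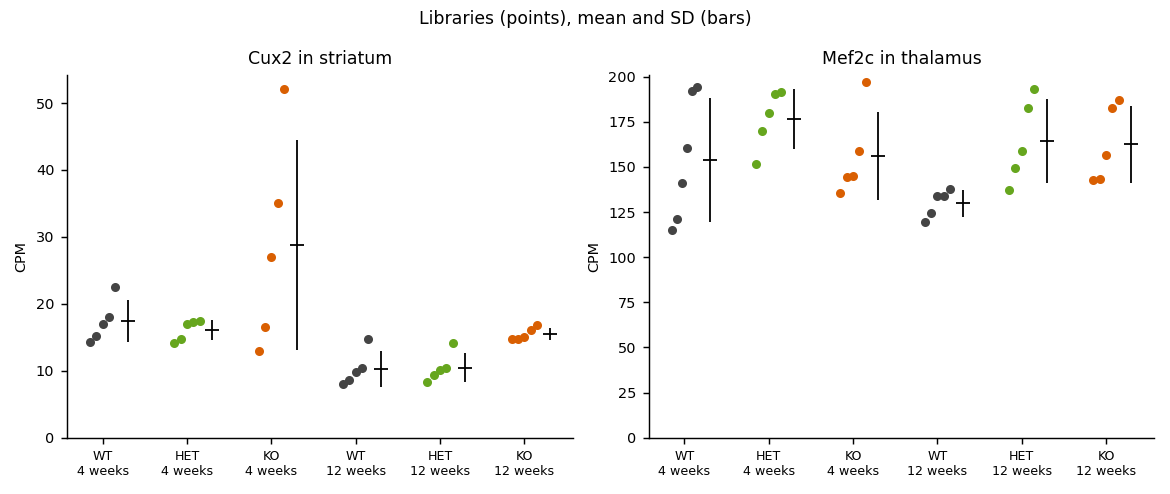
Cux2 in striatum (left) and Mef2c in thalamus (right) in each library (points, CPM) with the mean and SD (bars), by genotype and age. At 12 weeks the KO Cux2 points lie at 14.7 to 16.8 CPM beside WT points of 8.01 to 14.7 CPM, and the KO Mef2c points at 143 to 187 CPM lie above the WT points of 120 to 138 CPM.

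In thalamus the 4-week estimates rested on WT 913 and WT 914. WT 913 had 86.2 CPM of Neurod2, 65.0 CPM of Neurod6 and 14.6 CPM of Tbr1, and WT 914 had 2.89 CPM of Neurod2 and 3.91 CPM of Tbr1. The other 4 WT libraries were at 0.0301 to 0.272 CPM for Neurod2 and 0.670 to 1.53 CPM for Tbr1. As a percentage of the WT hippocampal mean, Emx1 in WT 913 was at 50.8%, Neurod1 at 45.7%, Neurod2 at 45.4%, Emx2 at 40.9%, Neurod6 at 38.4%, Tbr1 at 37.0% and Fezf2 at 31.1%. Of WT cortex, the same library reached 106% for Neurod1 and 9.19% for Tbr1. Against the 14 libraries other than WT 913 and WT 914, WT 913 was above all of them for 6 of 8 hippocampal neuron genes, 15 of 20 other cortical projection neuron factors, 6 of 10 cortical products, 5 of 8 deep-layer genes, 6 of 10 GABA interneuron genes, 4 of 7 midbrain dopamine neuron genes and 4 of 8 striatal projection neuron genes. It was below all of them for 7 of 7 thalamic neuron and 5 of 5 oligodendrocyte genes. From the lists just named it was also below them for 2 of the 20 factors and 2 of the 10 products. The same held for 1 of the 8 hippocampal and 1 of the 8 striatal genes. WT 914 was above all 14 for 7 of 8 striatal projection neuron, 7 of 10 GABA interneuron and 5 of 5 oligodendrocyte genes. It was below them for 7 of 7 thalamic neuron genes. Of the 20 cortical factors, 9 were above and 5 below all 14 in WT 914, and of the 10 cortical products 5 were above and 5 below. In WT 913 the mean log2(CPM + 1) was 4.70 against 1.66 to 2.73 in the 14 for the hippocampal list and 7.999 against 8.89 to 9.54 for the thalamic list. How large a share of all genes lay outside the range of the 14 is not given, so the list counts are descriptions.

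Against these WT libraries, KO thalamus at 4 weeks gave -2.13 ± 0.72 for Tbr1 (log2, SE; edgeR adjusted p = 0.263) and -4.25 ± 1.76 for Neurod2 (0.315), and -0.24 for Tbr1 without them (adjusted p = 0.831). Neurod2 was then under the filter on low counts and could not be tested. HET thalamus, set against the same WT libraries, gave -2.39 ± 0.82 for Emx2 and -2.05 ± 0.71 for Tbr1 (edgeR adjusted p = 0.220 for both), and -0.66 and -0.17 without them (0.695 and 0.883). Cux2, which WT 913 and WT 914 held at 91.6 and 126 CPM against 139 to 168 CPM in the other WT libraries, was at 0.27 ± 0.12 with them and 0.11 without them (edgeR adjusted p = 0.333 and 0.583).

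Mef2c in thalamus at 12 weeks was the only member in any of the 12 sets whose KO and WT libraries did not overlap (1.71% of all genes in that set did not). It was at 143, 143, 157, 182 and 187 CPM in KO and at 120, 124, 134, 134 and 138 CPM in WT, with HET at 137, 150, 159, 182 and 193 CPM. The HET libraries reached as high as the KO libraries, and only HET 1, at 137 CPM, lay inside the WT range. The log2 difference was 0.33 ± 0.09 in KO (edgeR adjusted p = 0.489) and 0.34 ± 0.09 in HET (0.390), and it did not pass in any alternative that was run. No thalamic library stood apart at this age. Thalamic Cux2 at 12 weeks was at 0.17 ± 0.08 in KO (edgeR adjusted p = 0.648). In nigra at 12 weeks Mef2c was instead at 9.56 to 13.4 CPM in KO and 11.0 to 27.8 CPM in WT, with a log2 difference of -0.43 ± 0.20 (edgeR adjusted p = 0.791), and the highest WT library, WT 5, lay above the other 14. Without WT 5 it was -0.13 (edgeR adjusted p = 0.9999).

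In substantia nigra at 4 weeks the median percentages of WT cortex ran from 0.433 to 11.4% over 17 libraries. WT 23 held 12.4 CPM of Neurod2 and 9.23 CPM of Neurod6, against 0.102 to 2.89 CPM and 0.0981 to 1.54 CPM in the other WT libraries. WT 42 held 125 CPM of Cux2 and 84.6 CPM of Mef2c, against 63.2 to 83.9 and 12.9 to 25.3 CPM. In WT 42, 5 of 7 thalamic neuron genes were above and 5 of 7 midbrain dopamine neuron genes below all 16 other libraries of the set. The part of tissue makeup in these nigral differences was not tested.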

How the data were processed

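The deposited table held expected counts per gene and library, made by the authors with Salmon against mm10, per the submitters' processing notes. Its version, annotation and strand setting were not stated there. Of the deposited expected counts, 77.9% were not whole, and all were rounded. In R 4.3.3, edgeR 4.0.16 (TMM, filterByExpr, quasi-likelihood test, Benjamini-Hochberg over all genes, threshold 0.05) compared the genotypes within each region and age, and regions and ages in WT. DESeq2 1.42.0, other size factors, no filter, covariates and left-out libraries were alternatives. The fits were tested on simulated data. Levels are CPM (TMM over 186 libraries), gene positions GENCODE M21 and promoters RefSeq. The labels do not say that libraries are separate animals, so p-values measure only the spread between these samples. Members and gene lists were chosen with earlier results of these data known. Named genes were the members, Akap11, the 2 genes most like each member, and up to 2 called genes per list in KO striatum where a result turned on them. Bcl11b falls outside this rule. For Tbr1, 1 of the 2 is not reported here.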

Additional observations from a re-analysis of the deposited data

Results flagged for a closer look

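Dixon's criterion was applied to combinations of member and group whose highest library was at 1 CPM or more. In groups of 5 or 6 libraries, 39 of 269 combinations had 1 library far from the others by it. The criterion flags about 1 in 20 sets of normally distributed values. Groups near 0 CPM entered only through a high library, so that rate is no yardstick for this count. All values are CPM, with the range of the other libraries of the group in parentheses where it helps.

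Striatal WT 92 at 4 weeks was high for Tbr1 (50.8; others 0.151 to 2.52), Neurod2 (20.7), Neurod6 (20.6), Fezf2 (8.10) and Emx1 (2.19). The 3 high KO libraries of that set do not appear here because 3 of 5 libraries were high. Striatal HET 931 was high for Emx1 (1.36; others 0 to 0.301).

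Thalamic WT 913 at 4 weeks was high for 7 members: Neurod2 (86.2; others 0.0301 to 2.89), Neurod6 (65.0), Tbr1 (14.6), Neurod1 (9.60), Emx1 (6.10), Emx2 (4.84) and Fezf2 (4.53). Thalamic KO 12 was high at a lower level for Neurod2 (3.49; others 0 to 0.149), Tbr1 (1.73) and Neurod6 (1.48).

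Nigral WT 23 at 4 weeks was high for Neurod2 (12.4), Neurod6 (9.23), Neurod1 (3.24) and Emx1 (1.07), whereas nigral WT 42 was high for Cux2 (125) and Mef2c (84.6; others 12.9 to 25.3). Nigral HET 941 was high for Tbr1 (1.96). At 12 weeks nigral WT 5 was high for Mef2c (27.8; others 11.0 to 15.2) and Tbr1 (1.46).

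Hippocampal HET 941 at 4 weeks was high for Mef2c (538; others 126 to 164), Cux2 (136) and Tbr1 (108), and WT 914 was low for Fezf2 (10.2). At 12 weeks Mef2c was high in hippocampal WT 5 (194; others 114 to 122) and HET 3 (151).

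In PFC at 12 weeks KO 2 was low for Mef2c (494; others 827 to 894) and Neurod1 (5.12), and WT 1 was low for Neurod2 (62.8). In SSC at 4 weeks WT 142 was high for Tbr1 (205), WT 913 high for Emx2 (9.87) and HET 931 low for Fezf2 (8.72). In SSC at 12 weeks HET 2 was low for Neurod2 (67.1) and WT 1 low for Mef2c (789; others 937 to 984).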

How the results depend on the processing

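The count of members called between KO and WT, 0, became 2 with DESeq2, 1 with only the 2 genotypes compared, and 0 to 1 when each library was left out in turn. With the replicate number as a block it was 1 (Cux2 in striatum at 12 weeks, 0.60, edgeR adjusted p = 0.0297). The labels do not say that a number marks 1 animal. Same-numbered 12-week libraries of a region differ in genotype and cannot be 1 animal. They deviated together in 62 of 90 pairs (correlation over 0.1, median 0.166, lowest -0.275). Same-numbered WT libraries of different regions did so in 50 of 75 pairs at 12 weeks and 31 of 76 at 4 weeks. Neither check decides what a number marks. The numbers were not taken as pairs in the main fits, which leave out any structure shared by number. The 9 calls between ages became 15 with DESeq2, run without the edgeR low-count filter, and 7 to 10 with 1 library left out. The region calls ran from 87 to 100 at 4 weeks and from 117 to 120 at 12 weeks. These ranges leave aside the larger 4-week count, given above, without the libraries that stood apart. For the age and region calls the share of all genes in each alternative is not given, so these counts describe only the members.

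Left out one at a time, no library gave a call for HET or for the KO effect by age (0 in all such edgeR fits). In KO striatum at 4 weeks (log2, edgeR), the cortical product score as a covariate turned Tbr1 to -0.23, Neurod2 to -0.064, Neurod6 to -0.58, Fezf2 to -0.27 and Mef2c to -0.021. Without the 4 libraries that stood apart, Emx1 was -0.63, Tbr1 -2.21, Neurod2 -2.12, Neurod6 -4.48, Fezf2 -1.15, Cux2 -0.14 and Mef2c -0.18, and Emx2 (-0.07) ran from -0.23 to 0.053 with 1 library left out. In HET striatum at 4 weeks the covariate gave Emx1 1.16, Tbr1 1.05, Neurod2 0.77, Neurod6 0.97 and Cux2 0.013. Taking the 16 libraries with few whole-number values as a covariate gave Emx1 0.071, Tbr1 0.42, Neurod2 0.025 and Neurod6 0.28. Without the libraries that stood apart these were Emx1 1.498, Tbr1 1.64, Neurod2 1.31, Neurod6 1.48 and Fezf2 0.025. With 1 library left out they ran from -2.30 to 1.49 (Emx1), -3.06 to 1.62 (Tbr1), -3.51 to 1.28 (Neurod2), -3.32 to 1.46 (Neurod6) and -1.13 to 0.023 (Fezf2), highest without WT 92 in each. Neurod2 in KO thalamus at 4 weeks was 0.46 with the covariate. Where the value is not from leaving out libraries, the cause was not tested. With relative log expression size factors all 255 values kept direction and side. The libraries left out were chosen after values were seen. Members near 0 CPM in striatum and thalamus allow no estimate of small differences.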
